A study of Mus musculus with 8 samples.

Results

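The pregnane X receptor gene Nr1i2, the constitutive androstane receptor gene Nr1i3, the cytochrome P450 reductase gene Por and 7 P450 genes of the Cyp3a and Cyp2b subfamilies were followed in liver of 5-week-old mice. They were taken by gene symbol from a deposited table, 10 of its 19348 genes. The P450 genes were Cyp3a11, Cyp3a13, Cyp3a25, Cyp3a41a, Cyp2b9, Cyp2b10 and Cyp2b13. The study set 5 liver libraries of Stab1 knockout mice beside 3 of wild-type mice of the same age. The product of Stab1 is stabilin-1, a receptor of sinusoidal endothelium and some macrophages that takes up waste molecules, while the xenobiotic genes act in hepatocytes. The labels give no strain, sex, drug or diet, and do not say which exons were deleted. They do not say that the libraries came from separate animals, so a p-value here measures how far libraries spread, and part of that spread may be technical.

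Pregnane X receptor and constitutive androstane receptor are nuclear receptors of hepatocytes that sense drugs, steroids and bile acids, pair with a retinoid X receptor and switch on genes of drug metabolism. Cyp3a and Cyp2b genes are their best known targets, with Cyp3a11 widely read as a mark of pregnane X receptor activity and Cyp2b10 of constitutive androstane receptor activity. The Por product passes electrons to every microsomal P450. In mouse liver Cyp3a41a, Cyp3a41b, Cyp3a44, Cyp2b9 and Cyp2b13 are known for higher levels in females than in males.

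Several of these genes are close copies, which decides what their read counts can show, so the sequences that separate them are given before the values. The coding sequences of Cyp3a41a and Cyp3a41b had 1513 of 1515 bases in common in the GENCODE M21 transcripts of mouse build GRCm38. Of the 2012 stretches of 49 bases in the Cyp3a41a transcript, 49 bases being the read length, 26 occurred in no other Cyp3a or Cyp2b transcript, and together they spanned 133 bases. One of those spans lies in the 5′ untranslated part of exon 1. The other runs over the junction of exons 4 and 5 in the coding sequence and is printed here from transcript position 375 to 432, above the matching span of Cyp3a41b from 379 to 436, with the 1 differing base in capitals.
Cyp3a41a: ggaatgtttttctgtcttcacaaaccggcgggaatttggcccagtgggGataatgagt
Cyp3a41b: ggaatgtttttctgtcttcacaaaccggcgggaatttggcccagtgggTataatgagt
The deposited coverage had the same extent: reads lay on 108 to 122 of the 2060 bases of Cyp3a41a in wild-type libraries. A Cyp3a41a count below therefore rests on about 133 bases of the transcript. Cyp3a13 shared none of its 49-base stretches with another Cyp3a or Cyp2b transcript, Cyp3a11 shared 15.5%, Cyp3a25 27.7%, Cyp2b9 11.2%, Cyp2b10 9.05% and Cyp2b13 20.6%.

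Cyp2b9 and Cyp2b13 also begin alike. RefSeq promoter sequences for build GRCm38.p6, running from 250 bases before a gene's start to 50 after it, were found for 10 of 10 genes, and 298 of 300 bases were identical between this pair, against 92.7% of their coding sequences. The 250 bases before each start are printed because the pair differed in level while nearly sharing this window. They are Cyp2b9 at chr7:26173159-26173408, plus strand, and Cyp2b13 at chr7:26061245-26061494, plus strand, with the 2 differing bases in capitals.
Cyp2b9: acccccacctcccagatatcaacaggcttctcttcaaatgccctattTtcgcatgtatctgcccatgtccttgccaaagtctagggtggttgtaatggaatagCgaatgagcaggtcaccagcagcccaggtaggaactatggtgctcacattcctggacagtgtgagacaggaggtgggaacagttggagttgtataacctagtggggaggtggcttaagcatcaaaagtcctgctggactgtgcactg
Cyp2b13: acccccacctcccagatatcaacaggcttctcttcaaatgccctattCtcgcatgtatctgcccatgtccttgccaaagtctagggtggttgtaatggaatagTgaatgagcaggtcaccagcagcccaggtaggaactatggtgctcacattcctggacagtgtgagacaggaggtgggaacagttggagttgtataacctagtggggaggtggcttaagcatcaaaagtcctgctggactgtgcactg
The same 250 bases of Cyp3a11 (chr5:145879855-145880104, minus strand) and Cyp3a25 (chr5:146009619-146009868, minus strand) are printed because those are the genes of the set that stood higher in every knockout library. Capitals mark matches, on either strand, to AGGTCA or AGTTCA, the hexamers from which binding sites of nuclear receptors are built.
Cyp3a11: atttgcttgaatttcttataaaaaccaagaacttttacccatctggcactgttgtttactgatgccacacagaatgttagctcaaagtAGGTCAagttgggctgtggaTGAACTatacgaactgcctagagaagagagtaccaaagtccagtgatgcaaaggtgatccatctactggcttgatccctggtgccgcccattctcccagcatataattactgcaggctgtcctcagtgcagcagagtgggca
Cyp3a25: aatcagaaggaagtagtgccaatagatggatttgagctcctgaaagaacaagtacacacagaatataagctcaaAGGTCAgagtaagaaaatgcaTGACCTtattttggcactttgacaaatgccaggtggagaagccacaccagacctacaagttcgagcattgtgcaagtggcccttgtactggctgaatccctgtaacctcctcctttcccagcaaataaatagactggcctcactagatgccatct
AGGTCA occurred in 16.3% and AGTTCA in 14% of all 32851 promoter windows of 300 bases and a match is a description of these letters only. AGGTCA was matched in the windows of Cyp3a11, Cyp3a25, Cyp2b9 and Cyp2b13, and AGTTCA in those of Cyp3a11 and Cyp3a41a. TTCNNNGAA, the core bound by the growth hormone factor STAT5, was matched in none of the 10 windows and in 8.3% of all, read on both strands.

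Of the 8 libraries, 1 stood apart in depth and sex-linked reads. Knockout library 1 held 4.85 M (mega) reads against 8.94 to 10.8 M in the other 7, and 3 reads of the female transcript Xist against 4445 to 8222. It held 320 reads of the Y-linked gene Ddx3y, where the others held 0 to 4. Its sex-linked reads are thus those of a male and those of the others of females, while the labels give no sex, so fits are given with and without it. Female-biased liver genes summed to 7.04 CPM (reads scaled to library size after TMM) in knockout library 1, 1437 to 1729 in knockout libraries 2 to 5 and 1903 to 3376 in wild type. Stab1 itself held 5 to 16 reads per knockout library and 474 to 594 per wild-type library. The edgeR quasi-likelihood test called 28 of 12338 tested genes at an adjusted p below 0.05, and 114 of 12283 without knockout library 1. Leaving out wild-type library 3 alone raised the count to 93, and both together to 2482. By a chi-square of read counts, wild-type library 3 lay nearer to knockout libraries 3 to 5 than to wild-type libraries 1 and 2. Why was not tested. Hepatocyte markers were abundant in every library, 6 of 6 being tested, 2 of 6 with fold changes above 0 and 0 called by edgeR (0 with an unadjusted p below 0.05) or DESeq2. Their sum (84567 CPM in knockout library 1, 122827 to 145742 CPM in knockout libraries 2 to 5, 155702 to 171686 CPM in wild type) is mostly that of the albumin gene Alb (86938 ± 23538 and 123190 ± 6418 CPM), while the groups overlapped for the other 5, among them Apoa1 (8660 ± 865 and 6949 ± 1884 CPM). In whole tissue a lower level from fewer cells of a type and from less RNA per cell cannot be told apart.

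Of the 10 genes, Cyp3a41a was the 1 called by edgeR, lower in knockout liver, where 0.227% of all tested genes were called in either direction, 0.0729% as higher and 0.154% as lower. Without knockout library 1 it was again the 1 called gene, beside 0.928% of all tested genes. The DESeq2 Wald test called 3 (Cyp3a41a lower, Cyp3a11 and Cyp3a25 higher), with and without knockout library 1, beside 1.03% and 8.61% of all genes it tested. With all libraries it called 0.507% of genes higher and 0.522% lower. An unadjusted edgeR p below 0.05 was found for 3 of 10, beside 13.6% of all tested genes. Without knockout library 1 it was found for 3 of 10, beside 25.5%. Every knockout library lay outside the wild-type range for 3 of 10 (2 above, 1 below), beside 6.65% of all tested genes (3.04% above, 3.61% below), and the other 7 overlapped. Without knockout library 1 the same counts held for the 10 genes, beside 18.3% of all tested genes (9.42% above, 8.87% below). The median log2 fold change of the 10 was -0.11, that of all tested genes -0.01, and without knockout library 1 these were -0.03 and -0.02. All 10 passed the filter on low counts, Cyp3a41a through its wild-type libraries, where it was high.

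**Figure D1:**
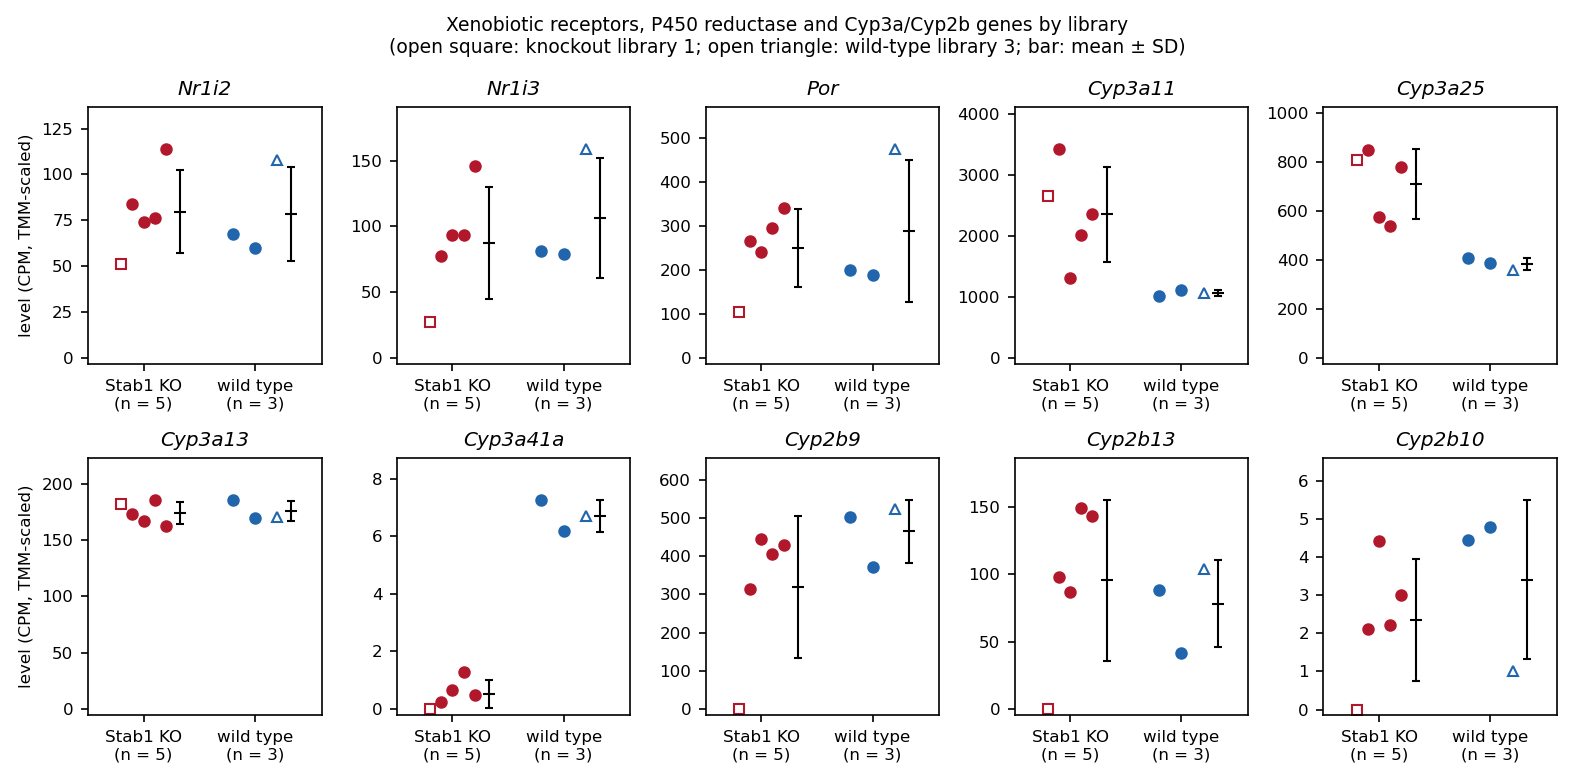
Level of each of the 10 genes in every library in CPM on linear axes, with knockout libraries in red and wild-type libraries in blue, and the mean with its SD (n = 5 and n = 3) as bars. Cyp3a11 and Cyp3a25 lie higher in each knockout library than in any wild-type library, Cyp3a41a lies lower, and knockout library 1 (open square) stands at 0 for Cyp2b9, Cyp2b10, Cyp2b13 and Cyp3a41a.

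Neither receptor gene was called. Nr1i2 (gene identifier 18171), the pregnane X receptor, stood at 51.1, 83.9, 73.9, 76.0 and 114 CPM in knockout libraries 1 to 5 and at 67.6, 60.0 and 108 CPM in wild-type libraries 1 to 3. The groups overlapped over most of their range, with knockout library 1 lowest and knockout library 5 and wild-type library 3 highest. Means were 79.9 ± 22.8 CPM (SD, n = 5) and 78.7 ± 26.0 CPM (SD, n = 3), and the fitted log2 fold change was 0.02 (SE 0.26, adjusted p = 0.973 by edgeR). The 95% interval of that difference ran from -0.56 to 0.61. Without knockout library 1 the value was 0.14 (SE 0.23, edgeR adjusted p = 0.718, -0.37 to 0.65).

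Nr1i3 (12355), the constitutive androstane receptor, stood at 27.0, 77.5, 93.3, 93.6 and 146 CPM in knockout libraries 1 to 5 and at 81.3, 79.2 and 159 CPM in wild type. The same libraries were the extremes as for Nr1i2: knockout library 1 lay lowest, 2.87-fold under the next library, and knockout library 5 and wild-type library 3 lay highest. Fitted over all libraries, the log2 fold change was -0.28 (SE 0.43, edgeR adjusted p = 0.757, 95% interval -1.23 to 0.67) and -0.06 (SE 0.28, adjusted p = 0.908, -0.69 to 0.57) without knockout library 1. Per length, in RPKM, which divides reads by gene length and library total, Nr1i2 stood at 38.2% to 46.8% of Nr1i3 in the wild-type libraries and at 44.1% to 60.9% in knockout libraries 2 to 5. In knockout library 1 it stood at 106% of Nr1i3.

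Por (18984), the electron donor of these enzymes, stood at 104, 266, 241, 294 and 340 CPM in the knockout and 200, 189 and 475 CPM in the wild-type libraries. Wild-type library 3 lay highest and knockout library 1 lowest of all 8, with the other knockout libraries between the wild-type extremes. With means of 249 ± 89.0 CPM (SD, n = 5) and 288 ± 162 CPM (SD, n = 3), the log2 fold change was -0.21 (SE 0.39, edgeR adjusted p = 0.808, 95% interval -1.08 to 0.66) and -0.02 (SE 0.30, adjusted p = 0.973) without knockout library 1. Its sign turned without wild-type library 3: the value was 0.36 (adjusted p = 0.572) without that library and 0.56 (adjusted p = 0.0397) without it and knockout library 1. The Nr1i3 value turned likewise, to 0.13 (adjusted p = 0.634) and 0.36 (adjusted p = 0.278). Of 10 edgeR fits without knockout library 1, those with a replicate block aside, 1 called Por, and it was run after seeing the data.

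Nr1i2, Nr1i3 and Por ranked the libraries much alike. Over the 7 libraries without knockout library 1, Pearson's r of log2 levels was 0.88 for Nr1i2 with Nr1i3, 0.90 for Nr1i2 with Por and 0.88 for Nr1i3 with Por. None of the Cyp3a genes followed the receptors as closely, with r of Nr1i2 at 0.35 with Cyp3a11, 0.35 with Cyp3a25, -0.45 with Cyp3a13 and -0.32 with Cyp3a41a. For Cyp2b9, Cyp2b10 and Cyp2b13, r was 0.26, -0.69 and 0.68 with Nr1i2 and 0.56, -0.61 and 0.49 with Nr1i3. These coefficients describe 7 libraries that share their 2 genotypes and their scaling, and carry no test.

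Partners of the receptors (19 listed genes: retinoid X receptors, coactivators, corepressors and the chaperone complex that holds the constitutive androstane receptor in the cytosol) gave 0 edgeR calls among 19 tested, with 5 of 19 fold changes above 0, a median of -0.06 beside -0.01 over all tested genes, and 1 unadjusted p below 0.05. With knockout library 1 left out edgeR called 0, with a median of -0.22. In that fit 5 of 19 had an unadjusted p below 0.05, beside 25.5% of all tested genes. DESeq2 called 0 of them, and 1 higher (Gnb2l1) and 1 lower (Hsp90aa1) without knockout library 1. For Hsp90aa1 the value was then -0.75 (SE 0.24, edgeR adjusted p = 0.101, DESeq2 adjusted p = 0.0401), and its groups overlapped. The 3 with the smallest p were Gnb2l1, a scaffold protein gene (knockout 492 ± 168 CPM, n = 5, wild type 302 ± 47.3 CPM, n = 3, edgeR adjusted p = 0.335), the chaperone gene Hsp90ab1 (536 ± 116 and 731 ± 170 CPM, 0.38) and the coactivator gene Ncoa3 (23.2 ± 5.28 and 29.7 ± 3.54 CPM, 0.402). The edgeR adjusted p without knockout library 1 was 0.09 for Gnb2l1, whose groups then did not overlap (0.81, DESeq2 adjusted p = 0.0174), 0.121 for Hsp90ab1 and 0.119 for Ncoa3. Hnf4a then lay wholly below wild type (-0.39, SE 0.13, edgeR adjusted p = 0.119, DESeq2 adjusted p = 0.0592).

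Electron transfer partners of P450 enzymes gave 0 edgeR calls among 6 tested, 0 of them below an unadjusted p of 0.05, with a median of -0.17. With knockout library 1 out edgeR again called 0, with 3 of 6 below an unadjusted p of 0.05, beside 25.5% of all tested genes. DESeq2 called 0 with all libraries and 1, higher, without knockout library 1. Cyb5a, the cytochrome b5 gene, stood at 694, 2440, 1165, 1507 and 1653 CPM in the knockout and 680, 751 and 1186 CPM in the wild-type libraries (log2 fold change 0.77, SE 0.36, edgeR adjusted p = 0.371). Knockout library 1 lay inside the wild-type range, and without it the value was 0.95 (SE 0.27, edgeR adjusted p = 0.0867, DESeq2 adjusted p = 0.0121). Cyb5r1, a cytochrome b5 reductase gene, had a fitted value of -0.55 (adjusted p = 0.385) and, without knockout library 1, of -0.73 (adjusted p = 0.101). For Pgrmc1, a heme-binding partner of P450 enzymes, these were 0.48 (adjusted p = 0.413) and 0.60 (adjusted p = 0.123).

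The Cyp3a genes did not move as 1 group: of 4 followed here, 2 stood higher in every knockout library, 1 stood lower and 1 overlapped closely with wild type. Cyp3a11 (13112), the main drug-oxidising Cyp3a enzyme of mouse liver, stood at 2654, 3428, 1304, 2021 and 2360 CPM in knockout libraries 1 to 5 and at 1006, 1119 and 1061 CPM in wild type. The groups did not overlap, and among the knockout libraries number 2 lay highest and number 3 nearest to wild type. The means were 2353 ± 784 CPM (SD, n = 5) and 1062 ± 56.4 CPM (SD, n = 3), a ratio of 2.22. Its log2 difference of 1.15 (SE 0.27, 95% interval 0.54 to 1.75) did not pass the edgeR test (adjusted p = 0.238, unadjusted p = 0.00171), nor did the 1.09 (SE 0.27, edgeR adjusted p = 0.075) without knockout library 1. DESeq2 called it in both fits (adjusted p = 0.00558 and 0.00266). Of 10 edgeR fits without knockout library 1, those with a replicate block aside, 2 called it. They also left out knockout library 3, the one nearest to wild type (1.28, edgeR adjusted p = 0.0131), or wild-type library 3 (1.1, edgeR adjusted p = 0.0334). Both were run after seeing the data and called far more genes over all than the fit with all libraries.

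Cyp3a25 (56388) had 76.1% of its coding bases in common with Cyp3a11, beside 76.6% for Cyp3a13 and 95.2% for Cyp3a41a. It stood at 810, 850, 575, 539 and 781 CPM in the knockout and 406, 388 and 358 CPM in the wild-type libraries. Again no knockout library reached down to a wild-type one, and knockout libraries 3 and 4 were the lowest of the 5. The ratio of means was 1.85 (711 ± 143 and 384 ± 24.2 CPM), and the log2 fold change 0.89 (SE 0.19, 95% interval 0.46 to 1.32, edgeR adjusted p = 0.187), or 0.83 (SE 0.18, adjusted p = 0.0685) without knockout library 1. DESeq2 called this gene too (adjusted p = 0.00127 and 0.00136). EdgeR did so in the same 2 of 10 fits, without knockout libraries 1 and 3 (adjusted p = 0.0221) and without knockout library 1 and wild-type library 3 (adjusted p = 0.0238). Per length, Cyp3a25 made up 25.4% to 45.2% of the Cyp3a11 level across knockout and 34.6% to 41.4% across wild-type libraries, so their proportion overlapped between genotypes.

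Cyp3a13 (13113), whose transcript shared no 49-base stretch with the others, showed no detectable difference. It stood at 182, 173, 167, 186 and 163 CPM in the knockout and 186, 170 and 171 CPM in the wild-type group. All 8 libraries fell within 163 to 186 CPM. Fitted, its log2 fold change was -0.01 (SE 0.12, edgeR adjusted p = 0.975), with a 95% interval of -0.29 to 0.27, and -0.03 (SE 0.13, adjusted p = 0.889) without knockout library 1. Its level per length was 3.51% to 8.88% of the Cyp3a11 level in the knockout and 10.6% to 12.8% in the wild-type group, ranges that did not overlap. That ratio has the non-overlap of Cyp3a11 in it and is not separate support.

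Cyp3a41a (53973), a female-predominant gene, fell in knockout liver. Libraries 1 to 5 held 0, 2, 7, 12 and 4 reads and the wild-type libraries 77, 67 and 67. Those reads covered 51 to 106 bases in the 4 knockout libraries that had any. In CPM these were 0, 0.223, 0.66, 1.27 and 0.462 against 7.27, 6.17 and 6.71, with no overlap. EdgeR fitted a log2 fold change of -3.53 (SE 0.46, 95% interval -4.56 to -2.50, adjusted p = 0.012). Without knockout library 1 it was -3.33 (SE 0.37, adjusted p = 0.00343), and the wild-type mean was 10.3 times that of knockout libraries 2 to 5 (6.72 ± 0.549 CPM, n = 3, and 0.654 ± 0.448 CPM, n = 4). The call was lost when knockout library 5 (adjusted p = 0.0527), wild-type library 1 (0.0806) or wild-type library 2 (0.0629) was left out alone. With knockout library 1 out, it was called with each other library left out in turn, at adjusted p-values up to 0.0193.

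Cyp3a41b held 0, 2, 5, 2 and 1 reads in knockout and 15, 12 and 20 in wild-type libraries. Its fitted log2 difference of -2.64 (SE 0.50, edgeR adjusted p = 0.109) was called without knockout library 1 (-2.46, SE 0.47, adjusted p = 0.0439) and by DESeq2 over all libraries (adjusted p = 0.0206). It passed the filter on low counts through its wild-type libraries, and its calls rest on at most 20 reads in a library. A read of the shared 98.7% of Cyp3a41a could not be placed, and only uniquely mapped reads were counted. Summing the reads of both copies does not bring such reads back. The sum gave -3.35 (edgeR adjusted p = 0.0124) and -3.15 (edgeR adjusted p = 0.00177) without knockout library 1. It holds mostly the Cyp3a41a reads (211 in wild type, beside 47 of Cyp3a41b) and is not separate support.

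Cyp3a16, another member of the subfamily, best known from fetal and young liver, stood at 0.978, 8.25, 18.5, 24.1 and 9.93 CPM in the knockout and 63.7, 30.8 and 100 CPM in the wild-type libraries. Every knockout library lay below the wild-type range, and knockout library 1 was 8.43-fold under the next lowest. Its log2 fold change was -2.36 (SE 0.61, edgeR adjusted p = 0.266) and, without knockout library 1, -2.09 (SE 0.42, edgeR adjusted p = 0.0514, DESeq2 adjusted p = 0.00704). Cyp3a44, whose coding sequence shares 95.8% of bases with Cyp3a41a, held 2.35 CPM in knockout library 1, but 498, 403, 357 and 599 CPM in knockout libraries 2 to 5 and 309, 286 and 471 CPM in wild type. Those 7 libraries overlapped (log2 fold change 0.38, SE 0.23, edgeR adjusted p = 0.309, 95% interval -0.12 to 0.88), and over all 8 the value was 0.07 (adjusted p = 0.979). Per length, Cyp3a16 was 1.88% to 7.66% of Cyp3a44 in knockout libraries 2 to 5 and 12.2% to 24.1% in wild type. Cyp3a59 overlapped between groups at 5.91 to 16.8 CPM (log2 fold change -0.40, edgeR adjusted p = 0.543, and -0.54, 0.283, without knockout library 1), and Cyp3a57 held 2 to 7 reads per library. Of the 7 Cyp3a and Cyp2b genes outside the set 4 were tested, with 0 edgeR calls over all libraries, 2 with an unadjusted p below 0.05, and 1 called by DESeq2.

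**Figure D2:**
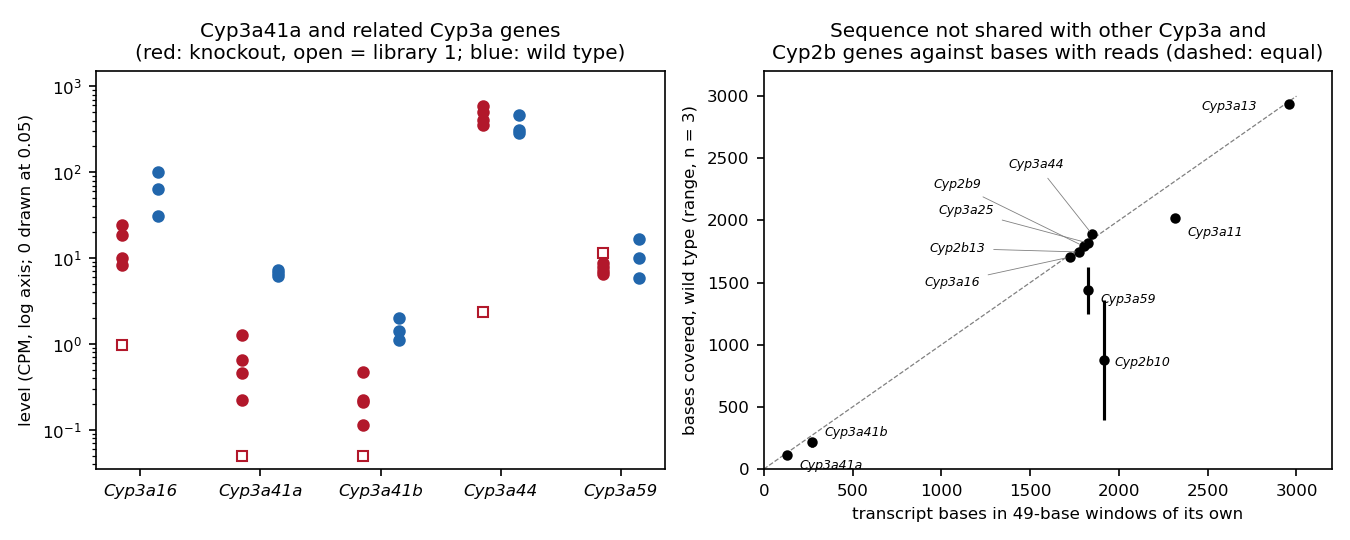
Left, levels in CPM (log axis, 0 drawn at 0.05) of Cyp3a41a and 4 related Cyp3a genes in knockout (red, knockout library 1 open) and wild-type (blue) libraries, with no overlap for Cyp3a16, Cyp3a41a and Cyp3a41b. Right, bases of each transcript that lie in 49-base stretches of its own against the bases covered by reads in the 3 wild-type libraries (bar, range); Cyp3a41a, at 133 bases, and Cyp3a41b, at 273 bases, stand far below the others.

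Lists of sex-biased and zoned genes were read beside these Cyp3a values. Among 10 female-biased liver genes outside the set, edgeR called 0 with all libraries (1 with an unadjusted p below 0.05, and 0 by DESeq2) and 2, both lower, without knockout library 1. DESeq2 called 1 higher and 2 lower without knockout library 1. Cyp2c69 stood at 166, 263, 131 and 171 CPM in knockout libraries 2 to 5 and 568, 728 and 818 CPM in wild type (-1.95, SE 0.23, edgeR adjusted p = 0.00455, beside 5.48 CPM in knockout library 1). Cyp2c40 stood at 120, 163, 102 and 93.7 CPM against 260, 290 and 199 CPM (-1.07, SE 0.21, edgeR adjusted p = 0.0471). A1bg, a plasma protein gene, stood at 80.9, 360, 65.7 and 116 CPM against 642, 361 and 552 CPM (-1.74, SE 0.51, edgeR adjusted p = 0.0907). Hao2 went the other way, with knockout libraries 2 to 5 wholly above wild type (92.1 ± 8.49 CPM, n = 4, and 49.4 ± 17.6 CPM, n = 3). Its value without knockout library 1 was 0.89 (SE 0.23, edgeR adjusted p = 0.0784, DESeq2 adjusted p = 0.00814). Median log2 fold change over the 10 was -0.81, and -0.51 without knockout library 1, with 4 of 10 above 0 in either fit. Of the zonation markers, 7 of 7 periportal genes had fold changes below 0 (summed level 2274 to 3278 CPM in the knockout and 3372 to 4409 CPM in the wild-type libraries), with 0 edgeR calls in either fit, 3 unadjusted p-values below 0.05, 0 DESeq2 calls and, without knockout library 1, 3 lower by DESeq2. The 8 pericentral markers summed to 7659 CPM in knockout library 1, 12129 to 13304 CPM in knockout libraries 2 to 5 and 8967 to 13435 CPM in wild type, with 0 edgeR calls in either fit, 1 unadjusted p below 0.05, 0 DESeq2 calls and, without knockout library 1, 1 higher and 1 lower by DESeq2. The part of these genes in the Cyp3a values was not tested.

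None of Cyp2b9, Cyp2b10 and Cyp2b13 was called, and knockout library 1 held no read of any of the 3. Cyp2b9 (13094), a female-predominant testosterone hydroxylase gene, stood at 314, 445, 406 and 430 CPM in knockout libraries 2 to 5 and 501, 371 and 523 CPM in wild type. Against a floor of 3 reads, or 0.587 CPM, knockout library 1 was at least 536-fold lower than the lowest other library, while the other 7 libraries overlapped. The log2 fold change without it was -0.23 (SE 0.18, edgeR adjusted p = 0.426), with a 95% interval of -0.62 to 0.16. With it in, the value was -0.54 and the SE rose to 1.05 (adjusted p = 0.816).

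Cyp2b13 (13089), the near copy whose promoter window is shown above, likewise had no read in knockout library 1, which makes that library at least 71.3-fold lower than any other. The remaining knockout libraries held 98.2, 86.7, 149 and 143 CPM and the wild-type libraries 88.5, 41.8 and 104 CPM. Knockout libraries 4 and 5 lay above every wild-type library and knockout libraries 2 and 3 among them. Over all libraries the fitted difference was 0.30 (SE 0.93, edgeR adjusted p = 0.89), and 0.61 (SE 0.30, adjusted p = 0.235, 95% interval -0.06 to 1.28) without knockout library 1. Per length, Cyp2b13 was 31.3%, 19.5%, 36.8% and 33.3% of Cyp2b9 in knockout libraries 2 to 5 and 17.7%, 11.3% and 19.8% in wild type. Only knockout library 3 fell inside the wild-type range of that ratio.

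Cyp2b10 (13088), the usual mark of constitutive androstane receptor activity, had the lowest counts of the Cyp2b genes followed. Its counts were 0, 19, 47, 21 and 26 reads in knockout libraries and 47, 52 and 10 in wild type, or 0, 2.12, 4.43, 2.22 and 3.0 CPM against 4.44, 4.79 and 1.0. The groups overlapped, and wild-type library 3 held the fewest reads of any library but knockout library 1. Its log2 fold change was -0.46 (SE 0.65, edgeR adjusted p = 0.738, 95% interval -1.91 to 0.98) and -0.22 (SE 0.46, adjusted p = 0.788) without knockout library 1. Cyp2b19 and Cyp2b23 held 2 and 1 reads in all 8 libraries.

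**Figure D3:**
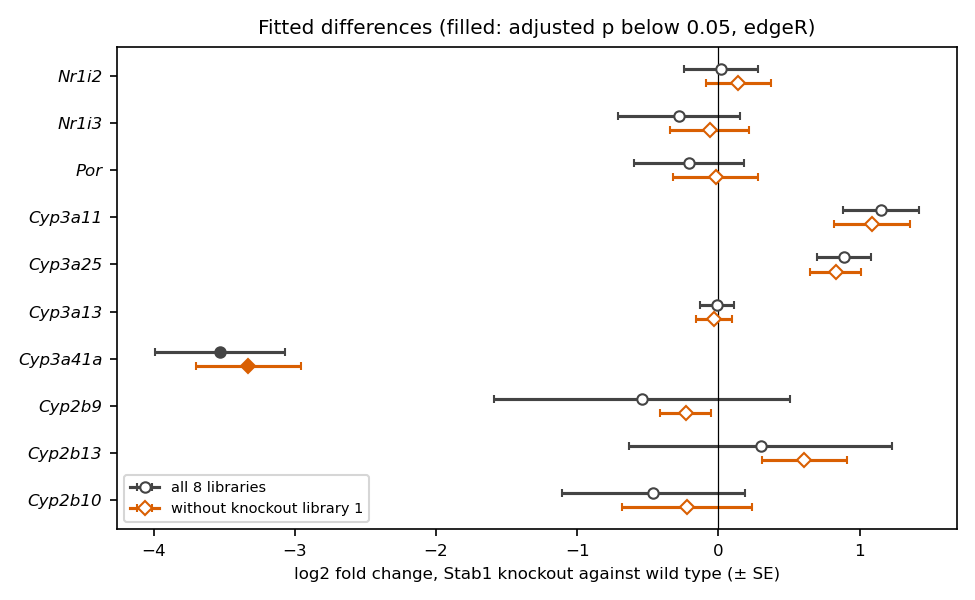
Fitted log2 fold change of knockout against wild type with its SE for the 10 genes, over all 8 libraries (circles) and without knockout library 1 (diamonds), filled where the edgeR adjusted p was below 0.05. Cyp3a41a, at -3.53 and -3.33, is the filled gene, Cyp3a11 and Cyp3a25 lie right of 0 at 1.15 and 0.89 with open symbols, and the bars of Cyp2b9 and Cyp2b13 shrink without knockout library 1.

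In wild-type liver the order per length, in mean RPKM over 3 libraries, was Cyp3a11 (515 ± 31.1 RPKM), Cyp2b9 (246 ± 41.3), Cyp3a25 (191 ± 13.0), Por (116 ± 64.4), Nr1i3 (74.1 ± 31.1), Cyp3a13 (59.1 ± 2.92), Cyp2b13 (41.2 ± 16.7), Nr1i2 (30.7 ± 9.88), Cyp3a41a (3.24 ± 0.247) and Cyp2b10 (1.82 ± 1.12). The Cyp3a41a value divides reads from 133 bases by the whole 2060-base transcript and so sets a lower end for that gene. Ranges of neighbours overlapped from Cyp2b9 down to Cyp3a13, and again for Cyp2b13 and Nr1i2. In knockout libraries 2 to 5 Cyp3a11 led with 1091 ± 406 RPKM (n = 4), Cyp3a25 (338 ± 68.5) stood over Cyp2b9 (210 ± 33.2) with no overlap, and Cyp3a41a (0.316 ± 0.221) came last.

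Other known targets of the receptors gave no edgeR call in the full comparison. Of 27 listed genes 24 were tested, 10 of 24 had fold changes above 0, the median was -0.04 beside -0.01 for all tested genes, and 4 had an unadjusted p below 0.05. Without knockout library 1 edgeR called 1 higher and 1 lower, beside 0.415% and 0.513% of all tested genes. DESeq2 called 1 lower with all libraries, and 2 higher and 6 lower without knockout library 1, where it called 5.52% of all genes higher and 3.09% lower.

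Slco1a4, a sinusoidal transporter gene that takes up organic anions, stood at 38.1 CPM in knockout library 1, 185, 139, 186 and 196 CPM in the other knockout libraries and 86.9, 60.3 and 93.0 CPM in wild type. Knockout libraries 2 to 5 lay wholly above wild type (1.13, SE 0.19, edgeR adjusted p = 0.027), and knockout library 1 below it, so that with it in the value was 0.90 (SE 0.43, adjusted p = 0.38). Cyp2c29, a P450 gene induced through the constitutive androstane receptor, stood at 192, 457, 506, 497 and 520 CPM in the knockout and 908, 833 and 710 CPM in the wild-type libraries. All knockout libraries lay below wild type, with a fitted log2 difference of -0.91 (SE 0.28, edgeR adjusted p = 0.325) that was called without knockout library 1 (-0.73, SE 0.14, adjusted p = 0.0439).

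Ugt1a1, the bilirubin glucuronosyltransferase gene, stood at 50.1, 73.3, 130, 98.1 and 116 CPM in the knockout and 208, 196 and 188 CPM in the wild-type libraries. The groups did not overlap, at a fitted log2 difference of -1.08 (SE 0.26, edgeR adjusted p = 0.254, DESeq2 adjusted p = 0.0214), and -0.93 (SE 0.19, edgeR adjusted p = 0.054) without knockout library 1. Abcc2, which exports conjugates into bile, stood at 188 ± 55.8 CPM (n = 5) and 318 ± 73.1 CPM (n = 3), and overlapped by knockout library 1 at 238 CPM and wild-type library 3 at 237 CPM (-0.76, SE 0.26, edgeR adjusted p = 0.332). The groups did not overlap without knockout library 1 (-0.86, SE 0.25, edgeR adjusted p = 0.0907, DESeq2 adjusted p = 0.0207). Ephx1 likewise lay below wild type in knockout libraries 2 to 5 (178 ± 28.8 CPM, n = 4, and 263 ± 12.5 CPM, n = 3). Its value there was -0.57 (SE 0.15, edgeR adjusted p = 0.0807, DESeq2 adjusted p = 0.017). Cyp2c37 (211 ± 114 and 351 ± 29.1 CPM) and Cyp2c50 (369 ± 150 and 607 ± 77.3 CPM) also lay below wild type in every knockout library. With all libraries in, the groups overlapped for the other listed targets. So every knockout library held more Cyp3a11 and Cyp3a25, and less Cyp2c29, Cyp2c37, Cyp2c50 and Ugt1a1, than any wild-type library. Of all tested genes, 3.04% lay above and 3.61% below wild type in this way.

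The genes whose log2 levels followed those of a gene of the set most closely were sought over the 7 libraries without knockout library 1. Other genes of the set and predicted or unnamed genes were left aside. The search ran over 9530 genes with a mean of at least 5 CPM and is a description with no test. The highest r of so many genes is high by that choice. For Nr1i2 they were Pank1 (Pearson's r 0.973), Rgl2 (0.971) and Pex19 (0.969), and for Nr1i3 Creb3l3 (0.972), Itga4 (0.967) and Junb (0.963). Cyp3a11 was followed by Mgat2 (0.997), Swt1 (0.995) and l7Rn6 (0.994), Cyp2b9 by Acsf2 (0.973), Ehmt2 (0.967) and Ralgapa2 (0.961), and Cyp2b10 by Dlg5 (0.976), Lpp (0.974) and Hlcs (0.972). Within the set, Cyp3a11 and Cyp3a25 reached 0.92 and Cyp3a25 and Cyp3a41a -0.96, both with the genotype difference in them. The r values of Cyp3a11 above have its genotype difference in them too.

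**Figure D4:**
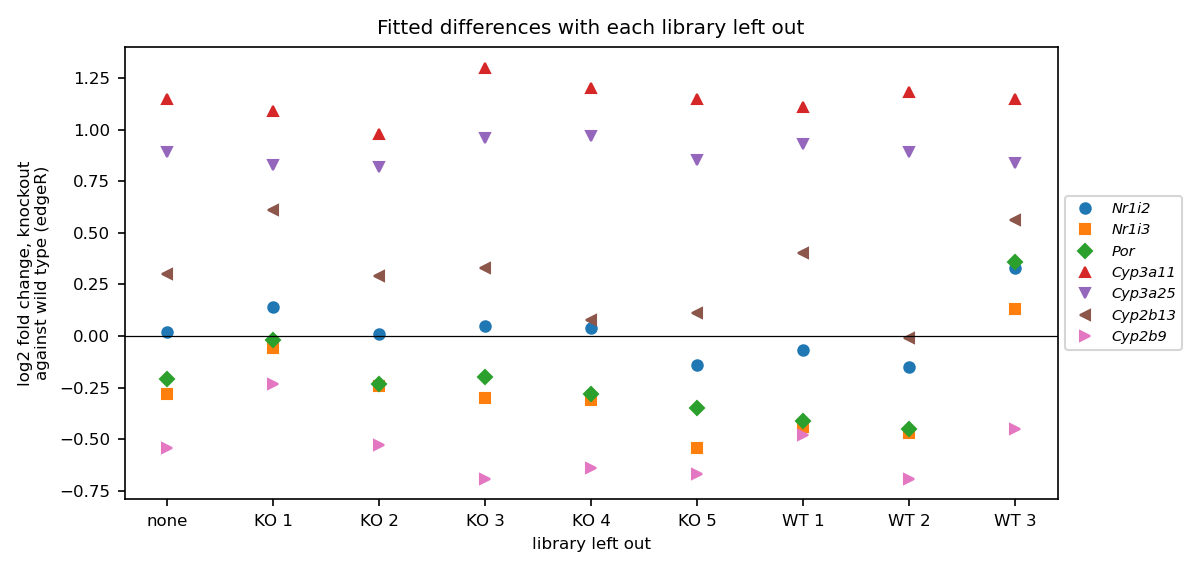
Fitted log2 fold change (edgeR) of 7 genes with all libraries and with each library left out in turn, KO for knockout and WT for wild type. Cyp3a11 stays between 0.98 and 1.30 and Cyp3a25 between 0.82 and 0.97, while Nr1i2, Nr1i3, Por and Cyp2b13 lie on both sides of 0 depending on the library left out.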

How the data were processed

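Liver RNA for 5 Stab1 knockout and 3 wild-type libraries was isolated with a NucleoSpin kit and sequenced at BGI, per the labels' protocols. Which aligner, counter, build, annotation and strandedness setting applied was not given in the sources used here. Per the file headers, the deposited table held a count of uniquely mapped reads, the percent of each gene covered, gene length (other) and RPKM. Recomputed RPKM equalled the deposited RPKM, and percent coverage served only to count covered bases. Reads were summed over 113 identifiers on 229 of 19464 rows, leaving 19348 genes. Read length (49 bases) was taken from genes with 1 read.

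Counts were tested in R 4.3.3 with edgeR 4.0.16 (filterByExpr, TMM, quasi-likelihood F test, Benjamini-Hochberg over 12338 genes, called at an adjusted p below 0.05; biological coefficient of variation 24.8%). DESeq2 1.42.0 was an alternative, as were each library left out, a replicate block, RLE scaling, no filter and a gene length offset. Intervals are 95% intervals of the fitted value. The fit was tested on simulated data. The lowest chi-square per degree of freedom over 28 library pairs was 10.7, so no pair agreed within sampling noise. That pair was wild-type libraries 1 and 2. Wild-type library 3 stood at 49.4 and 44.8 from those, and at 46.6, 20.6, 26.9 and 36.2 from knockout libraries 2 to 5. A floor of 3 reads was 0.587 CPM in knockout library 1 and covers counting error only. Figures were drawn with matplotlib 3.10.9.

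The genes and lists were chosen with earlier results of these data known. Named by rule were all 10 genes, Stab1, other Cyp3a and Cyp2b genes with at least 10 reads, and in each list every called gene up to 6, or the 3 with the smallest p where none passed. Slco1a4, Cyp2c40 and Elovl3 were called without knockout library 1. Cyp2b19 and Cyp2b23 are given as counts. Cyp2c37 and Cyp2c50 are named because every knockout library lay below wild type for them. Hao2 and Hsp90aa1 are named because DESeq2 called them without knockout library 1. Hnf4a and Ephx1 are named because their groups did not overlap in that comparison. Of the listed symbols Cyb5a and Adgre1 were matched by RefSeq gene identifier and Tf by a synonym (Cyb5, Emr1 and Trf in the table), the rest directly. RefSeq GRCm38.p6 held 99.7% of the table's identifiers. Promoters came from RefSeq GRCm38.p6 and transcripts from GENCODE M21.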

Additional observations from a re-analysis of the deposited data

Results flagged for a closer look

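In 5 of 31 genes looked at, 1 of the 5 knockout libraries lay far from its fellows, by Dixon's criterion for the gap to the nearest library. Chance does this in about 1 in 20 independent groups of values. The 31 genes share the same 5 libraries and were chosen, so the 5 of 31 cannot be set against that rate. For 4 of the 5 genes the far library was knockout library 1. Cyp2c29, a target of the constitutive androstane receptor, stood at 192 CPM there and at 457 CPM in the next library. The male-biased liver genes stood high in it: Cyp2d9 at 1312 CPM (next 324), Mup20 at 3986 CPM (next 327) and Elovl3 at 181 CPM (next 2.56). The other was Stab1 in knockout library 2, at 0.557 CPM (next 1.27).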

How the results depend on the processing

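Under every alternative run, Cyp3a41a, Cyp3a11, Cyp3a25 and Cyp2b9 kept their direction. Leaving out each library in turn gave 13 to 114 called genes (28 with all), 0 or 1 of the 10 genes and 0 to 6 of the listed pathway genes. The smallest count came without wild-type library 2, the largest without knockout library 1, and wild-type libraries 1 and 3 gave 15 and 93. DESeq2 called 134 genes, 3 of the 10 and 2 list genes, and without knockout library 1 it called 1057, 3 and 19. Chosen after seeing the data were a length offset without knockout library 1 (73 genes, 4 list genes), RLE scaling without it (114 and 6), and a further library left out with it, which gave 23 to 2482 genes (1166 without knockout library 3, 2482 without wild-type library 3), up to 4 of the 10 genes and 1 to 32 list genes. The cause of these shifts was not tested.

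Same-numbered libraries of the groups did not deviate together (r 0.13, -0.14 and -0.15), so the replicate numbers were not taken as pairs, and not every library correlated best with its own number. With the replicate block 8 genes were called, 0 of the 10 and 0 list genes (Cyp3a41a -4.29, adjusted p = 0.112), and 56, 1 and 3 without knockout library 1. Under the block signs turned for Nr1i2 (-0.16, and -0.04 without knockout library 1), Cyp2b13 (-1.0) and Cyp3a44 (-1.22), and without knockout library 1 for Cyp2b10 (0.36), Cyp3a59 (0.03) and Elovl3 (-1.61).

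Signs of other log2 fold changes turned with the libraries left out, alone or with knockout library 1. Their ranges were -0.15 to 0.45 for Nr1i2, -0.54 to 0.36 for Nr1i3, -0.45 to 0.56 for Por, -0.07 to 0.03 for Cyp3a13, -0.88 to 0.11 for Cyp2b10 and -0.01 to 0.88 for Cyp2b13. With 1 library left out they were -0.17 to 0.38 for Cyp3a44, -0.70 to 0.06 for Cyp3a59 and -1.77 to 2.65 for Elovl3. Cyp3a13 gave 0.03 with the length offset and 0.02 with it and without knockout library 1. Elovl3 without knockout library 1 gave -1.76 with DESeq2 or RLE scaling and -1.84 with the length offset.

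Depth limits Cyp3a41a, Cyp3a41b and Cyp2b10, with at most 77, 20 and 52 reads in a library.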

Other observations

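Male-biased liver genes set knockout library 1 apart as the female-biased ones did. The 10 listed genes summed to 7418 CPM there, 538 to 1152 CPM in knockout libraries 2 to 5 and 559 to 970 CPM in wild type. With all libraries edgeR called 0 of 9 tested (2 with an unadjusted p below 0.05, and 0 of 5 by DESeq2), at a median log2 fold change of 1.0, which was -1.02 without knockout library 1, where edgeR called 1 lower and DESeq2 1 higher and 3 lower. Elovl3, a fatty acid elongase gene, stood at 2.56, 2.26, 2.22 and 1.73 CPM in knockout libraries 2 to 5 and 6.7, 10.8 and 4.91 CPM in wild type (-1.77, SE 0.29, edgeR adjusted p = 0.0261 without knockout library 1). In that fit 2 of 9 fold changes lay above 0, those of Cyp2d9 and Mup20, whose groups overlapped. Cyp2d9, the gene DESeq2 called higher, had 1.15 (SE 0.27, edgeR adjusted p = 0.0733, DESeq2 adjusted p = 0.00181). Mup20 had 0.98 (SE 0.38, edgeR adjusted p = 0.151).

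Markers of other cells summed to far less than those of hepatocytes. The 5 biliary markers summed to 56.7 to 132 CPM in knockout and 53.9 to 64.5 CPM in wild-type libraries, the 6 sinusoidal endothelial markers to 185 to 212 and 239 to 287 CPM, and the 5 Kupffer cell markers to 346 to 548 and 292 to 403 CPM. Of the 8 intestinal markers Cdx1, Cdx2, Sis and Alpi had no read in any library (sum 188 to 679 and 325 to 525 CPM), and of the 6 pancreas markers Cpa1 had none (38.1 to 88.4 and 25.7 to 33.3 CPM). Most of the intestinal sum was Apoa4 (421 ± 161 and 394 ± 124 CPM). Most of the pancreas sum was Cela1 (50.5 ± 19.0 and 27.6 ± 4.42 CPM). Pnlip held 2 reads in the knockout libraries and none in wild type, and Cpb1 1 read in wild type and none in the knockout. EdgeR called 0 genes of these lists, with 2 biliary, 1 endothelial, 1 Kupffer cell, 1 intestinal and 2 pancreas genes at an unadjusted p below 0.05. Fold changes lay above 0 for 4 of 5 biliary, 0 of 6 endothelial, 5 of 5 Kupffer cell, 3 of 3 intestinal and 2 of 2 pancreas genes tested. DESeq2 called 0 with all libraries, and without knockout library 1 it called 2 biliary, 1 intestinal and 1 pancreas gene higher and 1 endothelial gene lower, where edgeR called 0.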
